A study of Mus musculus with 4 samples.

Results

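Replacement histones are histone proteins made outside the bulk supply of the replication-coupled, clustered histone genes, and the genes described here encode 3 kinds of them: H3 variants (H3f3a, H3f3b, Cenpa), H2A variants (H2afx, H2afz, H2afy, H2afj) and linker histones (H1f0, H1fx). They were chosen by name from a list of 10 replication-independent histone genes, of which 9 were among the 19564 gene symbols of the files. The symbol H2afv, a gene for another H2A.Z protein, was not among them and is not analysed here. All 9 reached 1 RPKM in at least 1 population, the filter used for every count below, which 9942 genes passed.

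The transcripts were measured in erythroblasts of the mouse fetal liver at embryonic day 14.5, stained for the erythroid antigen TER119 and for the transferrin receptor CD71 and sorted without culture into 4 populations. R2 holds proerythroblasts and early basophilic erythroblasts, R3 early and late basophilic ones, R4 mostly polychromatophilic and orthochromatophilic ones, and R5 late orthochromatophilic erythroblasts with reticulocytes. The labels give no strain, genotype or treatment. Each population gave 1 library of polyadenylated RNA, so each population is a mixture of stages, no difference has a replicate check, and there is no p-value. In bulk RNA, fewer cells of a type and less RNA per cell cannot be told apart.

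Canonical histone genes are transcribed mainly in S phase and their messages end in a stem-loop without a poly(A) tail. Many replacement histone messages, though not all, are instead polyadenylated and are made through the cell cycle and in cells that have stopped dividing. H3.3 enters chromatin at transcribed genes and at heterochromatin, CENP-A marks centromeres, H2A.Z sits at promoters, H2A.X is phosphorylated at DNA breaks, and macroH2A is tied to silent chromatin. Linker histones bind the DNA between nucleosomes and compact it, and H1.0, the product of H1f0, is known as the linker form of differentiated cells. Erythroblasts condense their chromatin before the nucleus is expelled.

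H3f3a and H3f3b are shown first because they encode 1 protein and had different courses. In build GRCm38, H3f3a lies on the minus strand at chr1:180800832-180813943 and H3f3b on the minus strand at chr11:116021912-116027962. Their coding sequences are both 411 bases long with the stop, and all 137 codons code for the same residue or stop. They differ at 95 bases, which leaves 76.9% identical, and 81 of those differences are at the last base of a codon. The longest run with no difference is 23 bases. The first 150 coding bases, in which 32 differ, are given from the start codon, with the bases that differ between the genes in capitals.
H3f3a: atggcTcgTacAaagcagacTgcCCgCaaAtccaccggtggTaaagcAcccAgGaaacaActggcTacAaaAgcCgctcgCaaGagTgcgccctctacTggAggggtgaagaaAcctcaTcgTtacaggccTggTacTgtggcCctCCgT
H3f3b: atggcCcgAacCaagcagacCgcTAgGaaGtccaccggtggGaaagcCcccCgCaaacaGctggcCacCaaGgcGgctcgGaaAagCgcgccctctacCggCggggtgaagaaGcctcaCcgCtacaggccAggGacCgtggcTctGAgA

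The reads behind each level could be estimated. The RPKM of 1 read over 1 base could be read from the step size of the values, and gave the depth: 10 RPKM over 1 kb stood for 229.6 reads at R2, 256 at R3, 274 at R4 and 207 at R5. With it, the H3f3a values fitted whole reads over 90 countable bases, with 506 reads at R2, 1474 at R3, 1434 at R4 and 1097 at R5. The H2afz values fitted 42 countable bases, with 175, 137, 49 and 44 reads. On this estimate these 2 genes rest on a small part of their transcripts, of 2841 bases for H3f3a and 1069 bases for H2afz in GENCODE M21. For H2afz, 256 of 1034 stretches of 36 bases in its transcript were found in no transcript of another gene, or 24.8%, the lowest share of the 9 genes. H3f3a had 68.7%, shared with 53 other genes, and Cenpa 100%. For the other 7 genes no length under 531 to 787 bases gave whole reads, so the reads at those lengths are the fewest that fit, and intervals that use them are at their widest. These were at least 20 reads for H1fx, 58 for H1f0, 224 for H2afy, 627 for H3f3b, 652 for Cenpa, 685 for H2afj and 2389 for H2afx, each in its lowest library. The 95% intervals below are exact (Clopper-Pearson) intervals from these reads and cover counting error only.

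Globin messages took 5.52% of the summed RPKM at R2, 59.4% at R3, 80.4% at R4 and 81.9% at R5, and the RPKM of every other gene is relative to a total that holds these reads. As deposited, the median of all 9942 log2 ratios of RPKM + 1 was -1.09 for R3 over R2, -0.77 for R4 over R3, 0.27 for R5 over R4 and -1.65 for R5 over R2. Ratios are therefore also given after scaling by the median of gene ratios, where those medians were -0.37, -0.065, 0.074 and -0.42, and after removal of the globin genes, where they were -0.47, -0.34, 0.18 and -0.68. Shares of 1 gene among others of the same library do not depend on that scaling. Of the erythroid markers 9 were in the files, all 9 were above 1 RPKM in every library, and they summed to 959.6 RPKM at R2, 4901 at R3, 5479 at R4 and 3878 at R5. The 10 granulocyte markers summed to 6127 RPKM at R2, 426 at R3, 234 at R4 and 469 at R5. In R2 the granulocyte sum was thus above the erythroid one, so every ratio against R2 compares libraries that also differ in these markers, and their part in the ratios was not tested.

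H3f3a was the most abundant of the 9 genes in every population. As deposited it had 245 RPKM at R2, 639 at R3, 581 at R4 and 588 at R5. The R2 library was thus low and the 3 later ones were close together on that scale. From R2 to R5 the levels were 113, 542, 1047 and 821 after median scaling. Without globins they were 145, 648, 940 and 830, so that R4 was highest under either rescaling. R3 stood 2.61-fold above R2, with an interval of 2.36 to 2.89, and R5 stood 2.40-fold above R2, with an interval of 2.16 to 2.67. The log2 ratio of RPKM + 1 for R5 over R2 was 1.26 as deposited, 2.86 after median scaling and 2.51 without globins. It ranked above 97.9% of all genes as deposited. The log2 ratio of R5 over R4 was 0.017 as deposited, -0.35 after median scaling and -0.18 without globins. The annotated exons of H3f3a overlap the antisense genes H3f3aos and Gm17275, and the strand setting of the counting is not given in the sources used here, so reads from either strand cannot be told apart.

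As deposited, H3f3b had the other direction. It had 176 RPKM at R2, 89.2 at R3, 36.4 at R4 and 57.8 at R5, which is highest in R2 and lowest in R4. R3 held 0.51 of the R2 level, with an interval of 0.48 to 0.54, and R4 held 0.41 of the R3 level, with an interval of 0.37 to 0.45. The log2 ratio of R4 over R3 was -1.27 as deposited, and passed 2-fold under no other scaling, at -0.20 after median scaling and -0.61 without globins. R5 stood 1.59-fold above R4, with an interval of 1.43 to 1.77. Its log2 ratio for R5 over R2 of -1.59 lay near the middle of all genes, above 53.4% of them, and became -0.0011 after median scaling.

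Within each later library H3f3a held a larger share of the H3.3 messages than in R2. H3f3b made up 41.8% of the RPKM of the pair in R2, with a counting interval of 39.5% to 44.2%. The share was 12.2% in R3, 5.89% in R4 and 8.95% in R5. H3f3a thus exceeded H3f3b by 1.39-fold in R2, 7.17-fold in R3, 16.0-fold in R4 and 10.2-fold in R5. The summed RPKM of both genes was 421 at R2, 728 at R3, 617 at R4 and 646 at R5. The H3f3a term of these shares rests on the 90 countable bases.

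**Figure D1:**
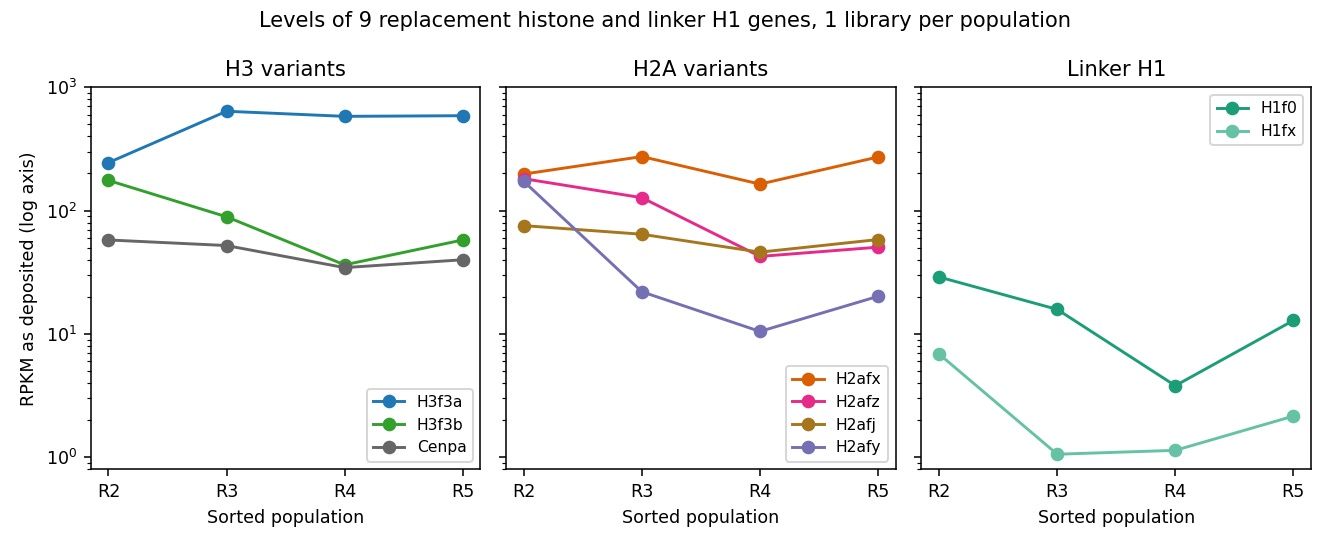
RPKM as deposited (log axis) of the 9 genes by sorted population, with H3 variants, H2A variants and linker H1 in separate panels and 1 point per library. H3f3a is at 581 RPKM or more from R3 on and at 245 RPKM in R2, H2afx stays between 164 and 274 RPKM, and H1f0 has its lowest point, 3.81 RPKM, in R4.

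The sequences before the annotated starts of the H3.3 genes are shown because the genes moved apart. They are the 250 bases upstream of the start in RefSeq (GRCm38.p6, minus strand), at chr1:180813606-180813855 for H3f3a and chr11:116024505-116024754 for H3f3b. Both stretches lie inside the gene spans given above, which begin further upstream, at 180813943 for H3f3a and 116027962 for H3f3b. The RefSeq start used is thus not the outermost annotated one. Capitals mark matches on either strand to any of the 7 motifs searched on both strands: the CCAAT box, the GC box GGGCGG, the TATA box TATAAA, the cAMP response element TGACGTCA, the GATA motif AGATAA, the CACCC-like motif CCNCNCCC and the forkhead motif AAACACA. Matches of GGGCGG and CCNCNCCC can overlap.
H3f3a: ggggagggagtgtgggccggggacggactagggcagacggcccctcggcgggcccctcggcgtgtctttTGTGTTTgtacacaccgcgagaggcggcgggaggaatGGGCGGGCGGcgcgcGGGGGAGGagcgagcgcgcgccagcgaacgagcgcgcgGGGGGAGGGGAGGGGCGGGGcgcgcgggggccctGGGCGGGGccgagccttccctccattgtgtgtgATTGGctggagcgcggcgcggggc
H3f3b: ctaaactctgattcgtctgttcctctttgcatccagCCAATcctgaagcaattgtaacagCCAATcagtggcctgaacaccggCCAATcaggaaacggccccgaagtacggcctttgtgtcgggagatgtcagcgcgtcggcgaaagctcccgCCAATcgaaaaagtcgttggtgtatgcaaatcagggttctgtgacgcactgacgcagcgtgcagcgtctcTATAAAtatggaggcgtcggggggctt

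The H3f3b stretch holds CCAAT on the plus strand of the gene at 4 places, whose first bases lie at -214, -190, -167 and -97 relative to the start, and TATAAA at -27. TATAAA was in 13.0% of 27025 promoters of the same length and in 1 of the 8 histone genes with an entry. The H3f3a stretch has no TATA match, and holds GC box, CACCC-like and forkhead matches and 1 CCAAT match. The CCAAT box was in 5 of the 8 histone promoters and in 34.5% of all promoters, and the GC box in 5 of the 8 and in 32.9% of all. The CACCC-like motif was in 7 and in 45.6%, the forkhead motif in 1 (H3f3a) and in 6.22%, and the GATA motif in 1 (Cenpa) and in 10.3%. The cAMP response element was in 0 of the 8 and in 1.62% of all. These matches are letters only, and no binding was measured.

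Cenpa, the centromeric H3, had the narrowest range among the H3 variants as deposited. It had 57.8 RPKM at R2, 52.1 at R3, 34.5 at R4 and 40.0 at R5. R5 held 0.69 of the R2 level, with an interval of 0.63 to 0.76, and the direction turned with the scaling, from a log2 ratio of -0.52 as deposited to 1.04 after median scaling and 0.70 without globins. It ranked above 87.7% of all genes in that comparison as deposited.

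H2afx had the highest RPKM of the 4 H2A variant genes in every library. In R2 counting error did not separate it from H2afz, at 182 RPKM, whose share of the pair had an interval of 43.9% to 51.7%. H2afx had 198 RPKM at R2, 274 at R3, 164 at R4 and 272 at R5, with R3 and R5 alike and R4 lowest as deposited, while R2 was lowest under either rescaling. R3 stood 1.39-fold above R2, with an interval of 1.32 to 1.46, and R5 stood 1.37-fold above R2, with an interval of 1.30 to 1.45. As deposited neither reached 2-fold. The log2 ratio for R5 over R2 was 0.46 as deposited, 2.05 after median scaling and 1.70 without globins, and it ranked above 94.96% of all genes as deposited. H2afx messages are known in a stem-loop form and in a polyadenylated form, and these libraries were enriched for the second kind. Its transcript shares stretches of 36 bases with 49 other genes, and 89.2% of its stretches were found in no other gene.

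H2afz, which encodes H2A.Z, had 182 RPKM at R2, 127 at R3, 42.6 at R4 and 50.6 at R5. As deposited the 2 earlier libraries were high and the 2 later ones low. After median scaling the levels were 83.5, 108, 76.7 and 70.6, and the log2 ratio of R3 over R2 turned to 0.37, against -0.51 as deposited. For R5 over R2 it was -1.82 as deposited, -0.24 after median scaling and -0.58 without globins, so that the 2-fold call held as deposited only. R4 held 0.33 of the R3 level, with an interval of 0.24 to 0.47, and its log2 ratio of -1.56 ranked above only 2.79% of all genes in that step. That ratio stayed negative but was under 2-fold at -0.49 after median scaling and -0.90 without globins. Against H2afx in the same library, H2afz made up 47.8% of the pair at R2, 31.7% at R3, 20.6% at R4 and 15.7% at R5. The counting intervals were 43.9% to 51.7% in R2 and 16.1% to 25.6% in R4.

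H2afy, which encodes macroH2A1, had the widest range of the 9 genes, 16.5-fold. It had 173 RPKM at R2, 22.0 at R3, 10.49 at R4 and 20.2 at R5, so that R2 stood apart from all later libraries. R3 held 0.13 of the R2 level, with an interval of 0.12 to 0.14. R5 held 0.12, with an interval of 0.104 to 0.131. The log2 ratio for R5 over R2 was -3.03 as deposited, -1.46 after median scaling and -1.81 without globins, and ranked above 1.19%, 2.13% and 1.92% of genes. The granulocyte markers were lower too: all 10 were 2-fold or more below R2 in R5 as deposited, where 76.9% of all genes were. All 10 were also lower after median scaling, where 13.7% of all genes were, and without globins, where 29.8% were. Of these granulocyte markers, Mpo (myeloperoxidase) had 146 RPKM in R5 and 1966 in R2. The part of these cells in the H2afy levels was not tested. The lymphoid markers summed to 24.5 RPKM at R2, 1.90 at R3, 0.87 at R4 and 2.31 at R5, with Cd3e at 0 in all 4 libraries, and the macrophage markers to 83.8, 44.1, 19.2 and 43.1 RPKM.

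H2afj, which encodes H2A.J, had 75.6 RPKM at R2, 64.4 at R3, 46.1 at R4 and 58.3 at R5, a range of 1.64-fold. The H2afj transcript shares stretches of 36 bases with 51 other genes, and 90.6% of its stretches were found in no other gene. R5 held 0.77 of the R2 level, with an interval of 0.70 to 0.85, and the log2 ratio of -0.37 turned to 1.20 after median scaling and 0.86 without globins. Within the 4 H2A variant genes, H2afx had 31.5% of the summed RPKM at R2, 56.2% at R3, 62.3% at R4 and 67.8% at R5. H2afy had 27.5% at R2, 4.51% at R3, 3.99% at R4 and 5.03% at R5. H2afz had 28.9%, 26.1%, 16.2% and 12.6%, and H2afj stayed between 12.0% and 17.5%.

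**Figure D2:**
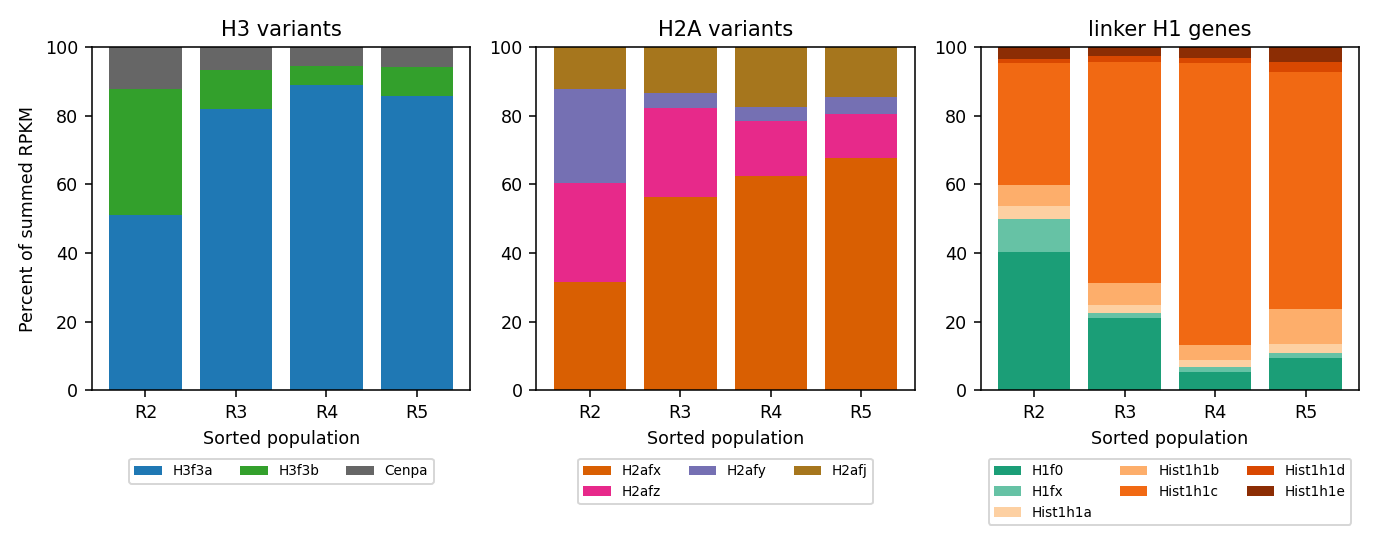
Percent of the summed RPKM taken by each gene among the 3 H3 variant genes, the 4 H2A variant genes and 7 linker H1 genes, with 1 stacked bar per library. H3f3a has 85.7% of the H3 variants in R5 and 51.2% in R2, H2afy is smaller in every later bar than in R2, and Hist1h1c has 82.1% of linker H1 in R4 and 35.5% in R2.

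H1f0 had 29.0 RPKM at R2, 15.8 at R3, 3.81 at R4 and 12.9 at R5. R4 was lowest, and R5 came close to R3. R4 held 0.24 of the R3 level, with an interval of 0.18 to 0.32, and its log2 ratio of -1.81 ranked above 0.55% of all genes. It was -0.87 after median scaling, which is under 2-fold, and -1.25 without globins. R5 then stood 3.38-fold above R4, with an interval of 2.48 to 4.66, on at least 148 reads in R5 and 58 in R4. The log2 ratio of that step was 1.53 as deposited, 1.27 after median scaling and 1.42 without globins, above 99.6%, 99.4% and 99.5% of genes. Sums of markers of other cells were also higher in R5 than in R4: the macrophage markers summed to 43.1 RPKM in R5 and 19.2 in R4, the hepatocyte markers to 392 and 183, the megakaryocyte markers to 68.6 and 23.5, and the granulocyte markers to 469 and 234. Not every marker rose. Those 2-fold or more higher were 3 of 9 macrophage, 4 of 8 hepatocyte, 4 of 7 megakaryocyte and 3 of 10 granulocyte markers past the filter. Over all genes 3.96% were. The same sums were higher in R3 than in R4, at 44.1 RPKM for macrophage, 536 for hepatocyte, 44.4 for megakaryocyte and 426 for granulocyte markers. In R4 over R3, 2 of 9, 8 of 8, 2 of 7 and 3 of 10 were 2-fold or more lower as deposited, where 32.1% of all genes were. After median scaling 0 of each list were, where 0.382% of all genes were. The part of these cells in the H1f0 level was not tested. In R5 over R2, H1f0 had a log2 ratio of -1.11 as deposited, but 0.41 after median scaling and 0.078 without globins.

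H1fx, which encodes the linker histone H1.X, was the least abundant gene, with 6.87 RPKM at R2, 1.06 at R3, 1.14 at R4 and 2.16 at R5. R3 held 0.15 of the R2 level, with an interval of 0.09 to 0.25, on at least 20 reads in R3 and 116 in R2. R5 and R4 differed by 1.89-fold, with an interval of 1.08 to 3.39. H1f0 made up 80.8% of the RPKM of H1f0 and H1fx at R2, 93.7% at R3, 77.0% at R4 and 85.6% at R5, with counting intervals that reached 67.0% to 85.0% in R4.

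Against the clustered linker genes H1f0 had a smaller place in every later library than in R2. Of the summed RPKM of 7 linker H1 genes, H1f0 had 40.3% at R2, 21.1% at R3, 5.30% at R4 and 9.41% at R5. Hist1h1c, a clustered H1 gene, had 35.5% at R2, 64.4% at R3, 82.1% at R4 and 69.0% at R5, on at least 393, 830, 1088 and 1314 reads. Hist1h1c had 25.5 RPKM at R2, 48.2 at R3, 59.1 at R4 and 94.4 at R5. The clustered genes are measured here only through the part of their messages that a poly(A) selection keeps.

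The 9 genes did not move as one. In R3 over R2, 1 of 9 was at least 2-fold higher (H3f3a), where 3.81% of all genes were, and 2 were lower (H1fx and H2afy), where 55.1% were. In R4 over R3, 0 were higher, where 0.493% of all genes were, and 4 were lower (H1f0, H2afz, H2afy and H3f3b), where 32.1% were. In R5 over R4, H1f0 was the 1 gene at least 2-fold higher, where 3.96% were, and 0 were lower, where 0.604% were. In R5 over R2, 1 was higher (H3f3a), where 2.74% were, and 5 were lower (H1f0, H1fx, H2afz, H2afy and H3f3b), where 76.9% were.

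The median log2 ratio of the 9 genes was -0.51 for R3 over R2, -0.74 for R4 over R3, 0.56 for R5 over R4 and -1.11 for R5 over R2, beside -1.09, -0.77, 0.27 and -1.65 for all genes. In R5 over R2, 7 of the 9 lay above the all-gene median as deposited, and 8 under either rescaling. With median scaling 4 of the 9 were 2-fold or more above R2 in R5 (H2afx, H2afj, H3f3a and Cenpa), where 9.42% of all genes were, and 1 was lower (H2afy), where 13.7% were. With globins removed 2 were higher (H2afx and H3f3a), where 7.35% were, and H2afy was lower, where 29.8% were. As deposited, 7 of the 9 were highest in R2 and 7 were lowest in R4. With median scaling those numbers were 3 and 2, and without globins 3 and 4.

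The single steps also shifted with the scaling. After median scaling, R3 over R2 had 2 genes higher (H2afx and H3f3a), against 8.38% of all genes, and 2 lower (H1fx and H2afy), against 18%. R4 over R3 had 0 higher, against 4.26%, and 0 lower, against 0.382%. R5 over R4 had 1 higher (H1f0), against 1.75%, and 0 lower, against 2.56%. Without globins, R3 over R2 had the same 2 genes higher, against 7.81%, and the same 2 lower, against 22.8%. R4 over R3 had 0 higher, against 1.98%, and 1 lower (H1f0), against 2.83%. R5 over R4 had H1f0 higher, against 2.98%, and 0 lower, against 1.58%. As deposited, R5 over R3 had 0 higher, against 0.664%, and 1 lower (H2afz), against 13.1%.

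**Figure D3:**
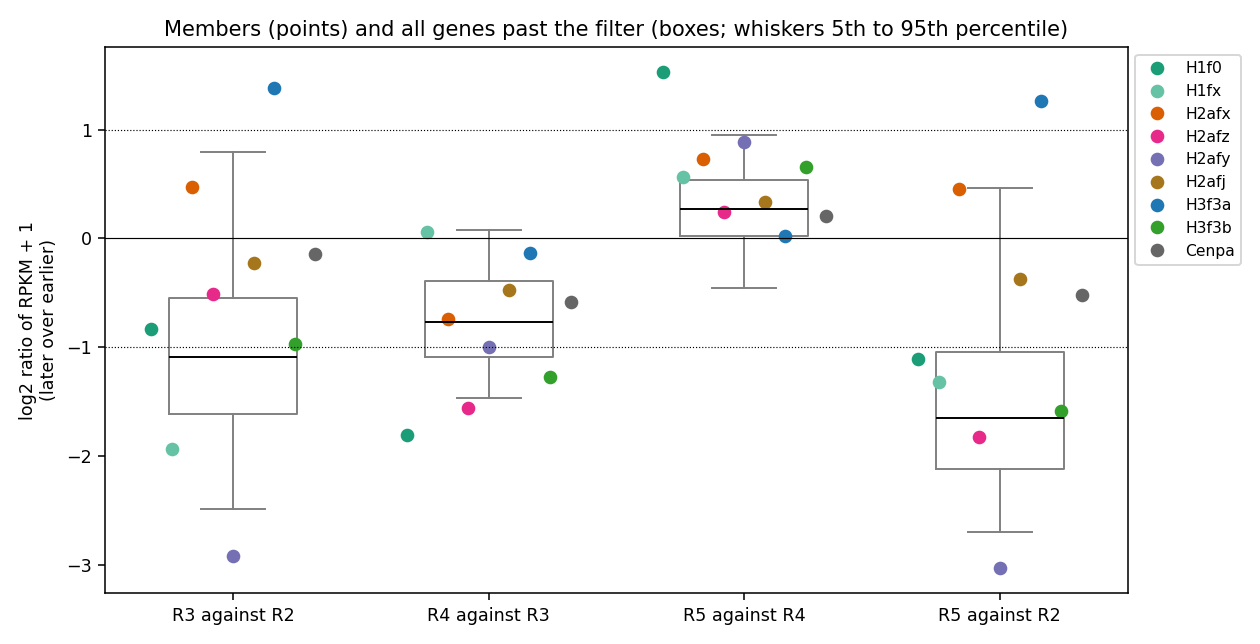
Log2 ratio of RPKM + 1, later over earlier population, for the 9 genes (points) and for the 9942 genes past the filter (boxes give quartiles, whiskers the 5th to 95th percentile), with dotted lines at 2-fold. H3f3a lies above the upper whisker and H2afy below the lower one for R3 over R2 and for R5 over R2, and H1f0 lies above it for R5 over R4.

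**Figure D4:**
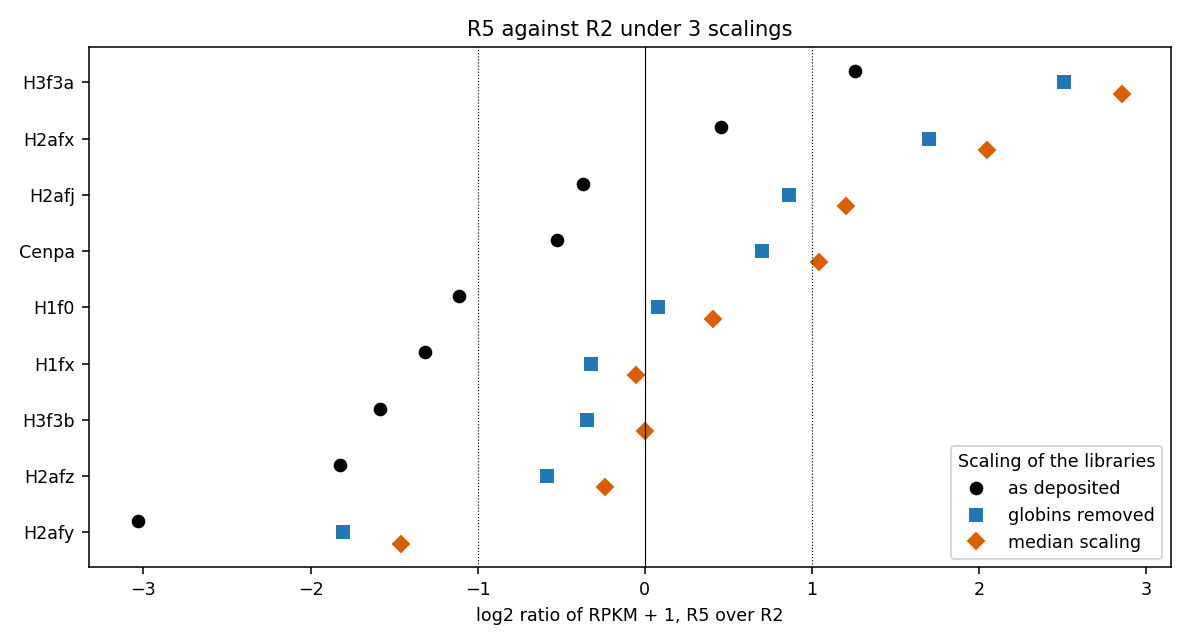
Log2 ratio of RPKM + 1 in R5 over R2 for each gene as deposited, without globins and after median scaling, with dotted lines at 2-fold. H3f3a is at 1.26 or higher and H2afy at -1.46 or lower under every scaling shown, while Cenpa, H2afj and H1f0 cross 0.

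The genes with the most similar course were looked up for the members with the highest and lowest log2 ratio for R5 over R2, as the root mean square distance between centred log2 values over the 4 libraries, among 5597 genes with at least 10 RPKM. Nearest to H3f3a were Prdx2, a peroxiredoxin of red cells, at 0.073, Urod, an enzyme of heme synthesis, at 0.078, and Ppox, another one, at 0.10. Gtpbp2 and Atg4d, an autophagy protease, followed at 0.12 each. Prdx2 had 510 RPKM at R2, 1455 at R3, 1379 at R4 and 1267 at R5. Nearest to H2afy were Mybbp1a, a nucleolar protein gene, at 0.024, Flna (filamin A) and Myc at 0.039 each, Hspd1, a mitochondrial chaperonin, at 0.044 and Ehmt2, a histone methyltransferase, at 0.050. Myc had 118 RPKM at R2, 15.8 at R3, 7.21 at R4 and 13.5 at R5. Within a distance of 0.2 there were 30 genes around H3f3a and 226 around H2afy. These courses were taken as deposited. With 4 libraries that differ in globin content and depth, such a likeness is a description.

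Genes that place and escort these histones were mostly lower in the later libraries, as most genes were as deposited. Of 13 chaperones of H3.3 and H3, 11 were 2-fold or more below R2 in R5 as deposited and 0 higher, with a median log2 ratio of -1.83, where 76.9% of all genes were lower and their median was -1.65. Hira, which deposits H3.3 at genes, had 35.8 RPKM at R2, 10.52 at R3, 4.07 at R4 and 5.88 at R5. Asf1b, a chaperone of dividing cells, had 39.3, 65.8, 26.8 and 28.6 RPKM, and its log2 ratio of -0.45 became 1.10 after median scaling. Dek, the chaperone with the highest mean, had 59.5, 87.2, 29.1 and 21.2 RPKM. With median scaling 0 of the 13 were lower, where 13.7% of all genes were, and 1 higher, where 9.42% were. Without globins 4 were lower, where 29.8% of all genes were, and 0 higher.

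Of 7 CENP-A loading genes in the files, 5 were at least 2-fold lower in R5 and 0 higher, with a median of -1.61, which is close to the 76.9% and the median of -1.65 of all genes. Npm1, a nucleolar histone chaperone, had the lowest ratio, -3.25, and Oip5, part of the Mis18 complex, the highest, -0.23, which became 1.15 after median scaling. Of 10 genes for H2A.Z exchange, 9 were lower and 0 higher, with a median of -1.91, from Ruvbl2 at -2.97 to Znhit1 at -0.89. After median scaling 2 of the 7 and 1 of the 10 were lower, and 1 and 0 higher, where 13.7% of all genes were lower and 9.42% higher. All 5 genes of FACT and NAP chaperones were lower, with a median of -2.50, where 76.9% of all genes were lower. After median scaling 2 of the 5 were lower, and without globins 3, where 13.7% and 29.8% of all genes were. Ssrp1, a FACT subunit, had 28.8 RPKM in R5 and 168 in R2, Nap1l4 20.7 and 91.7, and Set, an acidic histone chaperone, 9.09 and 79.1.

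Of the 11 genes that act with phosphorylated H2A.X, 9 passed the filter, and 8 of these were lower and 0 higher, with a median of -1.65 that equals the all-gene one, where 76.9% of all genes were lower. After median scaling 0 were lower, where 13.7% of all genes were, and 1 higher, where 9.42% were, with a median of -0.36. Without globins the counts were also 0 lower and 1 higher, where 29.8% and 7.35% of all genes were. Baz1b, a kinase gene for H2A.X, had 10.02 RPKM in R5 and 47.8 in R2. The exception was Trp53bp1, which encodes a DNA break protein, with 6.83 RPKM at R2, 12.1 at R3, 11.7 at R4 and 8.42 at R5. Its log2 ratio for R5 over R2 was 0.27 as deposited and 1.62 after median scaling. All 7 HMG genes past the filter, whose proteins compete with H1 for nucleosomes, were lower as deposited, where 76.9% of all genes were, with a median of -1.90. After median scaling 3 of the 7 were lower, where 13.7% of all genes were, with a median of -0.60, and without globins 3, where 29.8% were. Hmga1 had 34.9 RPKM in R5 and 272 in R2, and Hmgb2 6.89 and 21.3. Of 6 genes for stem-loop histone message processing past the filter, all 6 were lower as deposited, where 76.9% of all genes were, with a median of -1.62 near the all-gene one. After median scaling 1 of the 6 was lower, where 13.7% of all genes were, with a median of -0.53. Without globins 1 was lower, where 29.8% of all genes were. Slbp, the stem-loop binding protein, had 88.1 RPKM at R2, 113 at R3, 27.1 at R4 and 27.3 at R5. Cpsf3, the nuclease that cuts histone messages, had 7.06 RPKM in R5 and 48.2 in R2.

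The clustered histone genes ran the other way from most genes. Of 55 that passed the filter, 29 were 2-fold or more above R2 in R5 and 0 lower as deposited, where 2.74% of all genes were higher and 76.9% lower, with a median of 1.02. After median scaling the counts were 53 and 0, where 9.42% and 13.7% of all genes were. The 29 were Hist1h1b, Hist1h1c, Hist1h1d, Hist1h2ah, Hist1h2ai, Hist1h2bb, Hist1h2bc, Hist1h2bl, Hist1h2bm, Hist1h2bn, Hist1h2bp, Hist1h3a, Hist1h3c, Hist1h3f, Hist1h3h, Hist1h3i, Hist1h4f, Hist1h4h, Hist1h4i, Hist1h4j, Hist1h4k, Hist2h2ab, Hist2h2bb, Hist2h3b, Hist2h4, Hist3h2a, Hist3h2ba, Hist3h2bb and Hist4h4. Among members at 5 RPKM or more in at least 1 library, Hist1h2bc had the highest ratio, 2.98, with 85.2 RPKM in R5 and 9.91 in R2, and Hist1h2af the lowest, -0.40, with 30.4 and 40.3. These genes share sequence with each other, so their single levels are uncertain. Of the 5 clustered linker genes 3 were higher (Hist1h1b, Hist1h1c and Hist1h1d), where 2.74% of all genes were, with a median of 1.39, and all 5 after median scaling, where 9.42% were. Hist1h1e, with the lowest ratio among those at 5 RPKM or more, had 5.81 RPKM in R5 and 2.42 in R2, and Hist1h1a, below that level, had 3.46 and 2.69. Of the 9 replacement genes 5 were 2-fold or more lower in that comparison as deposited, beside 76.9% of all genes, and H3f3a, at 1.26, was above the clustered median. Other variant genes were hardly seen: of 7 in the files, 0 passed the filter, and H2afy2, which encodes macroH2A2, had 0.14 RPKM in R5 and 0.57 in R2.

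In gene structure the 9 genes fell into 2 kinds, by the principal transcripts of GENCODE M21 (GRCm38). H1f0 (chromosome 15), H1fx and H2afj (both chromosome 6) and H2afx (chromosome 9) have 1 exon, as clustered histone genes do. Cenpa (chromosome 5) and H2afz (chromosome 3) have 5, H3f3a has 4, H3f3b 6 and H2afy (chromosome 13) 9. All 4 single-exon genes lay above the all-gene median ratio of R5 over R2 as deposited, and so did 3 of the 5 with several exons, the others being H2afz and H2afy. With 4 and 5 genes this is a description. Exons of H1f0, H1fx, H2afx, H2afy and H2afj also overlap an annotated antisense gene, with the same limit as for H3f3a.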

How the data were processed

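The values are RPKM, 1 per gene symbol, as the authors deposited them with 2 decimals, per the file headers. The genome build was mm9, per the submitters' processing notes. The aligner, the counting program, the annotation and the length behind each RPKM were not given in the sources used here. Each of the 4 populations has 1 library. The 9 genes and the related lists were chosen with earlier results of these data known.

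Log2 ratios used a pseudocount of 1 RPKM over genes reaching 1 RPKM in any library, so fold changes of low genes are understated. A gene was counted at a ratio of 2-fold or more. Plain folds with intervals are ratios of RPKM without a pseudocount. Median scaling used 2745 genes at 5 RPKM or more in every library, and globin removal took out 8 genes and rescaled the rest to a common sum. Depth and countable bases were searched up to 2000 bases and fits up to 150 bases were taken as found. Alternatives were a pseudocount of 0.1 or of 5 RPKM, filtering at 5 RPKM or not at all, both scalings, and R3 in place of R2. All 9 genes were named in full. From each list the text names members 2-fold or more above R2 in R5, the most abundant one, and those with the top and bottom ratio among members at 5 RPKM or more. The 5 genes closest in course to the top and bottom histone gene are named too. Marker lists are given by sums and by counts past 2-fold, with Mpo and Cd3e named after their values were seen. Promoters matched for 8 of the 9 genes (RefSeq, GRCm38.p6). The steps were tested on simulated data. Python 3.11.15, numpy 2.4.6, pandas 2.3.3, scipy 1.17.1 and matplotlib 3.10.9 were used.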

Additional observations from a re-analysis of the deposited data

How the results depend on the processing

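No paired analysis was possible because each population has 1 library, and for the same reason no library could be left out within a group. The choice that moved most results was the scaling between libraries. In R5 over R2 the median log2 ratio of the 9 genes, -1.11 as deposited, was 0.41 after median scaling and 0.078 without globins, and H1f0, which was the median gene, had those same values. Genes at least 2-fold higher there numbered 1 as deposited, 4 after median scaling and 2 without globins, and genes lower 5, 1 and 1. In R3 over R2 the 1 higher gene became 2 under either scaling, and the median of -0.51 became 0.37 after median scaling and 0.26 without globins. In R4 over R3 the 4 lower genes became 0 after median scaling and 1 without globins, the median of -0.74 became 0.34 and -0.068, and H2afy, at -1.001 as deposited, was at 0.019 after median scaling. In R5 over R4 the median of 0.56 became 0.30 after median scaling. Over all genes, those higher and lower for R5 over R2 numbered 272 and 7643 as deposited, 937 and 1367 after median scaling, and 730 and 2961 without globins. They numbered 379 and 5477 for R3 over R2, then 833 and 1789, and 776 and 2262. In R4 over R3 they numbered 49 and 3194, then 424 and 38, and 197 and 281, and for R5 over R4 394 and 60, then 174 and 255, and 296 and 157.

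A pseudocount of 5 RPKM left 1 lower gene for R3 over R2 and 3 for R5 over R2, where the median was -0.73, and gave a median of 0.31 for R5 over R4, where 0.1 RPKM gave 0.67. Over all genes, higher and lower, a pseudocount of 5 RPKM gave 251 and 2969 for R3 over R2, 24 and 970 for R4 over R3, 79 and 21 for R5 over R4 and 184 and 4751 for R5 over R2, and one of 0.1 RPKM gave 74 and 5880 for R4 over R3 and 1587 and 155 for R5 over R4. The filters changed none of the ratios of the 9 genes. With R3 in place of R2, 0 of the 9 genes were higher in R5 (background 0.664%) and 1 lower, H2afz (background 13.1%), with a median of -0.14.

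Weighting RPKM by annotated exonic length gave H3f3b 37.9% of the H3.3 pair at R2, 10.6% at R3, 5.04% at R4 and 7.71% at R5. That weighting used 3504 bases for H3f3a, not the 90 countable bases estimated above, so it cannot check those shares. For H1f0 it gave 87.7% of the pair with H1fx in R2, 96.2% in R3 and 91.0% in R5. The planned share of H2afv in H2afz plus H2afv was not run. Filters and pseudocounts cannot turn the sign of a gene's ratio, so only the scaling between libraries could. The sign was the same as deposited, after median scaling and without globins for 6 of the 9 genes for R5 over R2. It was for 5 for R5 over R4, 4 for R4 over R3 and 5 for R3 over R2. For R5 over R2 the 6 include H3f3b at -0.0011 and H1fx at -0.051 after median scaling. Depth limits H1fx and H1f0, and countable bases limit H2afz and H3f3a.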
